A study of Mus musculus with 8 samples.

Results

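AMPA receptors are the glutamate-gated channels that carry most fast excitatory transmission in the hippocampus. The genes examined here are the 4 pore-forming subunits Gria1, Gria2, Gria3 and Gria4, 3 of the transmembrane AMPA receptor regulatory proteins (TARPs), Cacng2, Cacng3 and Cacng8, and 2 of the cornichons, Cnih2 and Cnih3. They were chosen by symbol, and all 9 were found among the 19201 genes of the expression table. Hippocampal RNA was sequenced from wild-type mice, which the labels call Control (C57BL/6), and from mice lacking the methyl-DNA binding protein Mbd2 (Mbd2-/-, C57BL/6 background). Each genotype had 4 libraries, and a library pooled tissue from 2 animals of 10 to 12 weeks, which makes each replicate a pool rather than an individual. The mice were littermates of heterozygous parents, carried a constitutive allele, and received no treatment. The pools hold whole hippocampus, so fewer cells of a type and less RNA per cell cannot be told apart. Library depth was 8439570 to 23790825 reads on genes in wild-type and 8087750 to 14020765 in Mbd2-/-. Mbd2 itself fell from 346 ± 34.4 to 260 ± 54.3 normalized counts (mean ± SD, n = 4 each, limma adjusted p = 0.0174), with 3 of the 4 Mbd2-/- libraries below every wild-type library. The knockout allele leaves the first exon in place, so the gene total is no direct check of the deletion.

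AMPA receptors are tetramers of Gria1 to Gria4 products (also called GluA1 to GluA4), and the subunits present set conductance and calcium entry. Most hippocampal receptors contain the Gria2 product, whose pore-loop glutamine codon is recoded to arginine in the RNA by the editing enzyme Adarb1, which makes the channel nearly impermeable to calcium. TARPs and cornichons bind the assembled channel, promote its traffic to the membrane and slow its closure. The Cacng8 product (gamma-8) is the TARP most characteristic of the hippocampus, and the Cacng2 product (stargazin) the founding member of the family.

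The bases around the pore-loop codon are shown because they mark the position where the subunits differ after editing while the genes remain alike. Each window is 45 bases of the coding strand, read 5′ to 3′ from mm9 with GENCODE vM1 exons, and the capitals mark the codon. Gria1 lies on the plus strand at chr11:57056575-57056619, Gria2 on the minus strand at chr3:80510812-80510856, Gria3 on the plus strand at chrX:38963421-38963465 and Gria4 on the minus strand at chr9:4464116-4464160. Each window lies within a single coding exon, the exon numbered 11 of the longest coding transcript in Gria1, Gria2 and Gria3 and 12 in Gria4.
Gria1: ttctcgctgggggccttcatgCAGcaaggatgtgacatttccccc
Gria2: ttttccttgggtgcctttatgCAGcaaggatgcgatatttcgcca
Gria3: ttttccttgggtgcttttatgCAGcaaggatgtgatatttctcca
Gria4: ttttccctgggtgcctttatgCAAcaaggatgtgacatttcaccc
The genome encodes glutamine at this codon in all 4 genes, including Gria2. Gria2 and Gria3 differed at 3 of the 45 bases, and Gria1 and Gria2 at 9. Read counts per gene hold no base calls, so the edited share of Gria2 RNA was not measured. Over the coding sequences the subunit pairs shared 71.7% to 74.6% of aligned bases. The longest exact run shared by the transcripts of any 2 subunits was 41 bases (Gria2 and Gria4), shorter than the 100-base reads. Among the TARPs and the cornichons the longest shared run was 23 bases.

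Levels in wild-type hippocampus were compared between genes as normalized counts per kilobase of the longest annotated transcript. Cnih2 stood highest at 3910 ± 333 (SD, n = 4), followed by Gria1 at 2874 ± 87.4, Cacng8 at 1836 ± 77.1 and Gria2 at 1294 ± 21.4. The remaining genes were lower, with Gria3 at 453 ± 13.3, Cnih3 at 316 ± 20.8, Cacng3 at 220 ± 16.5, Gria4 at 134 ± 7.30 and Cacng2 at 85.2 ± 3.86. Each gene kept a range separate from its neighbours in this order across the wild-type libraries. In Mbd2-/- the order of the means was the same, and only the ranges of Gria3 and Cnih3 met. The Cacng8 level is an upper estimate, because the annotation gives this gene a transcript of 663 bases that is coding sequence only. The same 663 bases are its coding length, against 969 for Cacng2 and 945 for Cacng3. Coding length is therefore no separate check on the Cacng8 level. Per kilobase of coding sequence the order changed below Cnih2 and Gria1, which led by either length. Gria2 (3256 ± 53.9) then lay above Cacng8 (1836 ± 77.1) and Cnih3 (1568 ± 104) above Gria3 (886 ± 26.1). Cacng2 (484 ± 22.0) lay above Cacng3 (355 ± 26.5), and Gria4 (269 ± 14.7) was last.

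Of the 9 genes, Gria1 and Gria3 were lower and Cnih2 was higher in Mbd2-/- hippocampus, while 6 did not pass the test. Genotypes were compared with limma on log2(normalized count + 1) across 14504 genes whose normalized counts averaged 10 or more, as all 9 did, and calls were made below an adjusted p of 0.05 (Benjamini-Hochberg). Over all tested genes 10.0% were called lower and 12.0% higher, against which the 2 lower and 1 higher calls among 9 genes are to be read. The median log2 difference was -0.12 over the 9 genes and -9.1e-05 over all tested genes, and 7 of the 9 differences were negative. A fold change on this scale is nearly the fold change of the normalized counts, since every gene had at least 200 reads in every library.

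**Figure D1:**
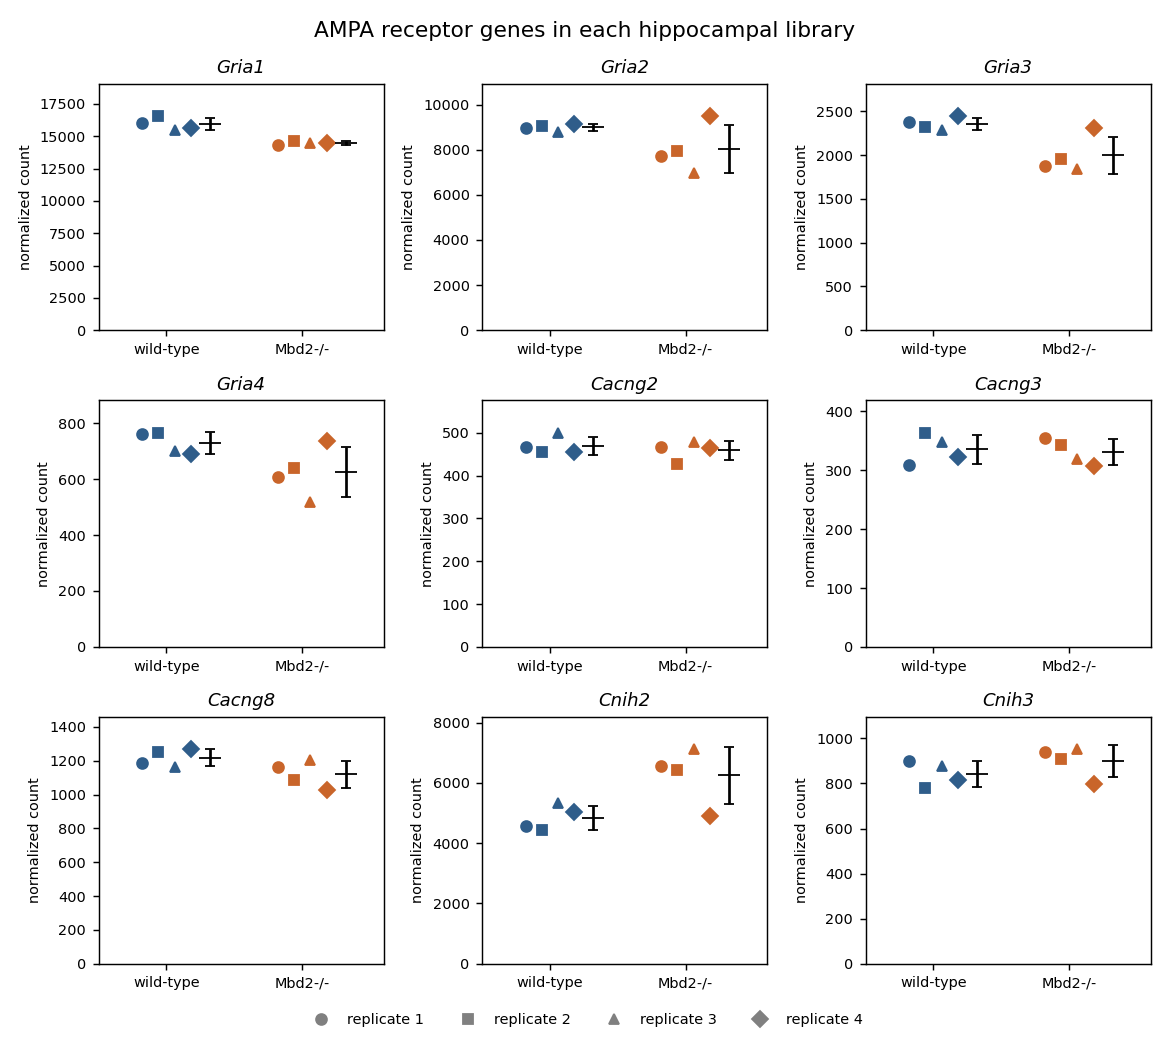
Normalized counts (y axis, from 0) of the 9 AMPA receptor genes in each library, with wild-type in blue and Mbd2-/- in orange, a symbol for each replicate number and the mean ± SD in black (n = 4). Gria1 was lower in all 4 Mbd2-/- libraries, while Gria2, Gria3, Gria4 and Cnih2 of Mbd2-/- replicate 4 (diamond) lay at or near the wild-type values.

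Gria1 encodes the most abundant subunit of these libraries and the one whose insertion accompanies long-term potentiation. Its normalized counts were 16022, 16585, 15505 and 15635 in wild-type replicates 1 to 4 and 14322, 14647, 14482 and 14489 in Mbd2-/- replicates 1 to 4. Every Mbd2-/- library lay below every wild-type library, a separation found in this direction for 11.5% of all tested genes. Gria1 fell by 9.08% (log2 difference -0.14, SE 0.040, limma adjusted p = 0.0228). The difference kept its size, from -0.15 to -0.12, when any 1 library was left out. The call was lost without wild-type replicate 1, 2 or 4 or Mbd2-/- replicate 1 or 2, with limma adjusted p from 0.0527 to 0.0778. It was also lost once the length trend was removed (-0.048, limma adjusted p = 0.451).

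Gria3 is an X-linked subunit gene. Its normalized counts were 2376, 2323, 2290 and 2449 in wild-type and 1871, 1960, 1841 and 2311 in Mbd2-/-. Mbd2-/- replicates 1 to 3 lay below every wild-type library, and replicate 4 lay within the wild-type range. Gria3 fell by 15.7% (log2 difference -0.25, SE 0.065, limma adjusted p = 0.0135). The limma adjusted p was 0.0550 without Mbd2-/- replicate 1 and 0.0508 without wild-type replicate 4.

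Gria2, which sets the calcium permeability of the receptor, did not pass the test. It measured 8964, 9063, 8806 and 9154 normalized counts in wild-type and 7731, 7941, 6973 and 9503 in Mbd2-/-. Replicates 1 to 3 of Mbd2-/- were below the whole wild-type range and replicate 4 was above it. The log2 difference was -0.17 (SE 0.070, limma adjusted p = 0.0883, 95% interval -0.32 to -0.024), and -0.11 without Mbd2-/- replicate 3.

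Gria4, the subunit typical of interneurons and the least abundant of the 4, did not pass the test either. It measured 760, 767, 700 and 690 normalized counts in wild-type and 609, 638, 518 and 737 in Mbd2-/-. Mbd2-/- replicates 1 to 3 lay below all wild-type libraries and replicate 4 lay within their range. The log2 difference was -0.23 (SE 0.086, limma adjusted p = 0.0658, 95% interval -0.41 to -0.048), and -0.14 without Mbd2-/- replicate 3.

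Without a length correction the 3 examined TARP genes gave no call in either direction with limma, edgeR or DESeq2, and none of the 3 had an unadjusted p under 0.05 in the limma fit of all 8 libraries. Cacng2 measured 466, 456, 500 and 455 normalized counts in wild-type and 467, 427, 478 and 465 in Mbd2-/-. Cacng3, a TARP of forebrain neurons, measured 309, 364, 348 and 322 against 355, 343, 319 and 308. The genotypes overlapped for both genes, and the 95% intervals of the log2 difference ran from -0.17 to 0.11 for Cacng2 and from -0.18 to 0.14 for Cacng3. Cacng8 measured 1184, 1253, 1163 and 1267 in wild-type and 1165, 1085, 1205 and 1025 in Mbd2-/-. Only Mbd2-/- replicates 2 and 4 lay below the wild-type range of Cacng8 (log2 difference -0.12, SE 0.061, limma adjusted p = 0.163). Without Mbd2-/- replicate 4 the Cacng8 difference was -0.080 (limma adjusted p = 0.250). With the length trend removed Cacng8 was called lower, a value that depends on its annotated length and is given with the length results.

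Cnih2, the cornichon that binds Gria1-containing receptors of pyramidal cells, was called higher, whereas Gria1 and Gria3 were called lower. It measured 4558, 4440, 5325 and 5026 normalized counts in wild-type and 6566, 6443, 7118 and 4907 in Mbd2-/-. Mbd2-/- replicates 1 to 3 were above every wild-type library and replicate 4 was within the wild-type range. Cnih2 rose by 28.5% (log2 difference 0.36, SE 0.097, limma adjusted p = 0.0178). The limma adjusted p was 0.0504 without Mbd2-/- replicate 1 and 0.0543 without Mbd2-/- replicate 3, and the difference was 0.15 (limma adjusted p = 0.135) once the length trend was removed.

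Cnih3, its less abundant paralog, measured 898, 778, 878 and 814 in wild-type and 941, 907, 952 and 799 in Mbd2-/-. The same 3 Mbd2-/- libraries were above the wild-type range, by a smaller margin, and the test was not passed (log2 difference 0.094, SE 0.068, limma adjusted p = 0.342). Per kilobase and library, the ratio of Cnih2 to the summed subunits was 0.735 to 0.930 in wild-type, 1.22 to 1.42 in Mbd2-/- replicates 1 to 3 and 0.870 in replicate 4.

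Mbd2-/- replicate 4 thus stood apart for Gria2, Gria3, Gria4, Cnih2 and Cnih3, but not for Gria1. It also stood apart over all genes. Within a genotype, pairs of libraries differed by 1.92 to 5.37 times the variance from counting alone when replicate 4 of Mbd2-/- was not among them and by 8.35 to 13.9 times when it was. Without this library Gria1, Gria2, Gria3 and Gria4 were all called lower, with log2 differences of -0.14, -0.26, -0.32 and -0.31 and limma adjusted p of 0.0027, 3.23e-05, 6.06e-06 and 0.000795. Cnih2 (0.47, limma adjusted p = 1.66e-06) and Cnih3 (0.15, limma adjusted p = 0.0418) were called higher. The TARPs Cacng2, Cacng3 and Cacng8 remained without a call, and Cacng3 changed sign, from -0.020 to 0.015. Over all tested genes 17.6% were then called lower and 17.9% higher.

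**Figure D2:**
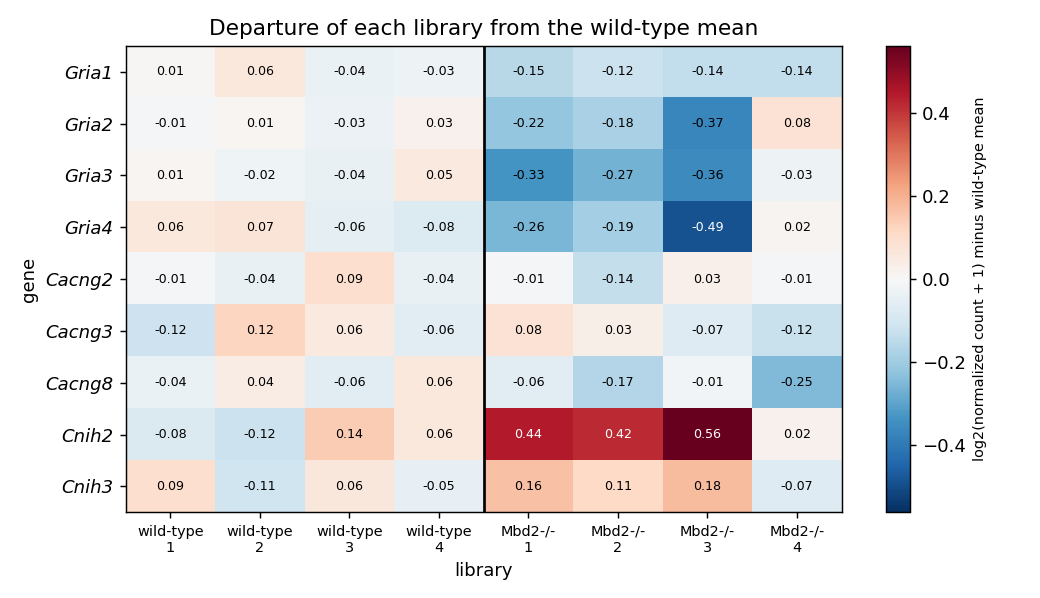
Difference of log2(normalized count + 1) from the wild-type mean, for each of the 9 genes (rows) in each of the 8 libraries (columns), with blue below and red above the wild-type mean. Gria1 ranges from -0.15 to -0.12 over the Mbd2-/- libraries, whereas Gria3 ranges from -0.36 to -0.27 in Mbd2-/- replicates 1 to 3 and is -0.03 in replicate 4.

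Transcript length moved with the same libraries. The log ratio of a library to the wild-type mean correlated with transcript length across 14182 genes, which are not independent, and Spearman's rho was -0.484, -0.431 and -0.480 in the Mbd2-/- libraries numbered 1, 2 and 3, against -0.0963 in replicate 4. In wild-type libraries rho lay between -0.0656 and 0.0647. The 4 subunit genes have long transcripts, from 5206 bases (Gria3) to 6955 bases (Gria2), against a median of 3188.5 bases over the tested genes, whereas Cnih2 has 1237 bases. With the length trend of each library taken off, Gria3 was still called lower (log2 difference -0.17, limma adjusted p = 0.0361), but, as given above, Gria1 and Cnih2 were not called. Gria2 (-0.056) and Gria4 (-0.14) kept their sign without a call. So did Cacng3, at -0.18 (limma adjusted p = 0.104) against -0.020 before the correction. Cacng8 was called lower in this fit (log2 difference -0.44, limma adjusted p = 1.11e-05), a value that rests on the annotated 663 bases. This fit called 6.78% of genes lower and 8.07% higher.

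**Figure D3:**
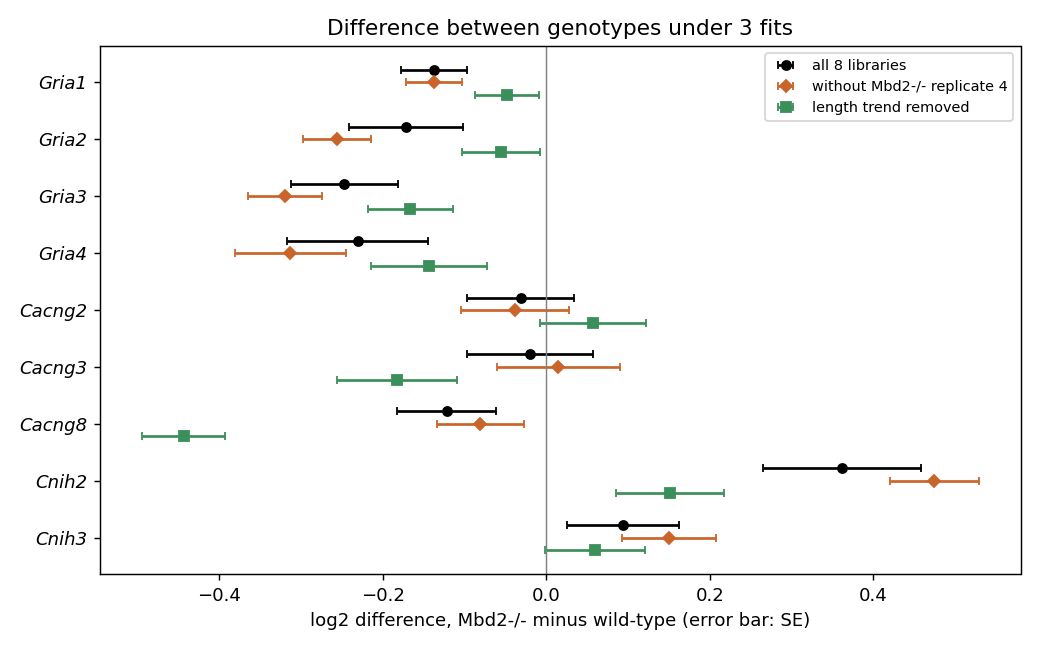
Log2 difference between genotypes, Mbd2-/- minus wild-type (x axis), of each of the 9 genes, with its SE, from all 8 libraries (black), without Mbd2-/- replicate 4 (orange) and with the length trend removed (green). Gria1 is -0.14 with or without replicate 4 and -0.048 with the length trend removed, and Cnih2 is 0.36, 0.47 and 0.15.

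The mix of subunits within a library was compared as the share of each gene in the summed level per kilobase of the examined subunits, TARPs or cornichons, with an exact two-sided permutation test. A total of 8 shares were tested, and 4 libraries against 4 can give no p below 0.0286. Gria1 made up 60.5%, 61.3%, 60.4% and 59.6% of the 4 subunits in wild-type and 62.0%, 61.8%, 64.3% and 57.3% in Mbd2-/-. Gria2 made up 27.0%, 26.7%, 27.3% and 27.8% in wild-type and 26.7%, 26.7%, 24.7% and 30.0% in Mbd2-/-. Both shares overlapped between genotypes, with differences of 0.902 (exact permutation p = 0.629) and -0.204 (exact permutation p = 0.771) percentage points. Replicate 4 of Mbd2-/- had the lowest Gria1 share and the highest Gria2 share of the 8 libraries.

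Gria3 accounted for 9.53% ± 0.327 of the subunits in wild-type and 8.97% ± 0.519 in Mbd2-/- (SD, n = 4, exact permutation p = 0.114). Gria4 accounted for 2.82% ± 0.111 and 2.69% ± 0.260 (exact permutation p = 0.486). Without Mbd2-/- replicate 4 the difference, Mbd2-/- minus wild-type, was 2.24 points for the Gria1 share, -1.19 for Gria2 and -0.823 for Gria3, each without overlap. The exact permutation p was then 0.0571, the smallest that 3 libraries against 4 allow. For Gria2 the separation was nearly a tie, with 26.698% in Mbd2-/- replicate 2 and 26.699% in wild-type replicate 2. The summed level of the 4 subunits per kilobase was 4754 ± 103 in wild-type and 4266 ± 214 in Mbd2-/- (SD, n = 4), and the highest Mbd2-/- library (4558) lay below the lowest wild-type library (4630).

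Among the 3 examined TARPs, which leave out Cacng4, Cacng5 and Cacng7, Cacng8 held 85.7% ± 0.898 in wild-type and 84.9% ± 0.768 in Mbd2-/- (SD, n = 4, exact permutation p = 0.200). Cacng3 held 10.3% ± 0.723 and 10.9% ± 0.736 (exact permutation p = 0.200), and Cacng2 3.99% ± 0.307 and 4.20% ± 0.275 (exact permutation p = 0.4). The levels of these shares depend on the length used, since Cacng8 held 68.6% ± 1.56 in wild-type by coding length. Both lengths of Cacng8 are the annotated 663 bases, so its share is uncertain by either. All 3 TARP shares overlapped between genotypes, and none passed the test.

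Cnih3 made up 8.37%, 7.51%, 7.10% and 6.99% of the 2 examined cornichons in wild-type and 6.23%, 6.13%, 5.84% and 7.02% in Mbd2-/-. Mbd2-/- replicates 1 to 3 lay below all wild-type libraries, and replicate 4 lay just above the lowest of them. The difference was -1.19 percentage points (exact permutation p = 0.0571), and none of the 8 shares passed 0.05.

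**Figure D4:**
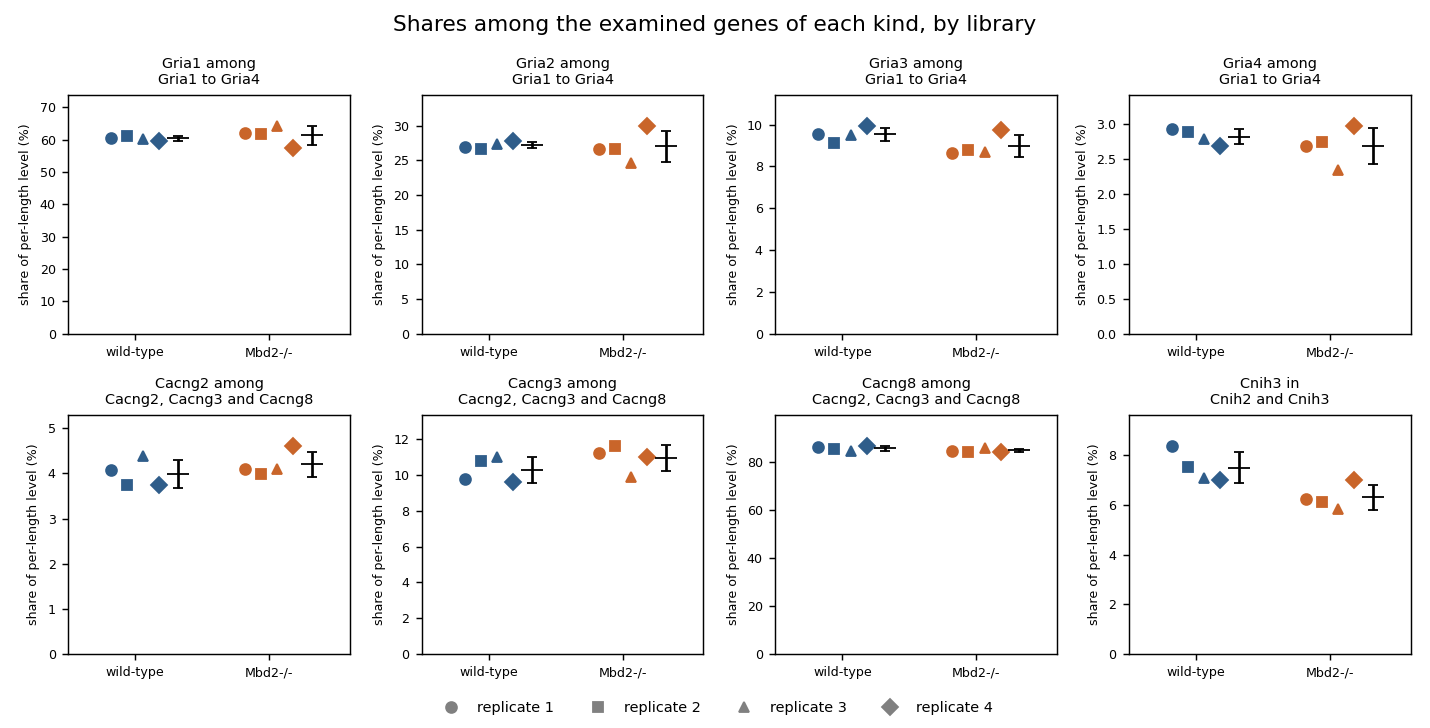
Share of each gene in the summed level per kilobase of the 4 subunits, the 3 examined TARPs or the 2 examined cornichons (y axis, percent, from 0) in each library, wild-type in blue and Mbd2-/- in orange, with a symbol for each replicate number and the mean ± SD in black (n = 4). The shares overlap between genotypes in every panel, and the Cnih3 share comes closest to separating.

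The wider AMPA receptor pathway was taken as 40 further genes, all of them measured and tested. Of these, 15 were called lower and 3 higher, a share to be read against the 10.0% and 12.0% of all tested genes. Their median log2 difference was -0.17. Without Mbd2-/- replicate 4 the counts were 18 lower and 6 higher, beside 17.6% and 17.9% of all tested genes in that fit. With the length trend removed they were 15 lower and 2 higher, beside 6.78% and 8.07%. The rule for naming genes took the 12 called genes with the smallest p and the 3 RNA editing enzymes.

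Other auxiliary and complex proteins gave 8 lower and 1 higher calls among 17 genes, beside 10.0% and 12.0% of all tested genes. Shisa7, Shisa6 and Shisa9 encode single-pass membrane proteins that bind AMPA receptors and alter their kinetics and short-term plasticity. Shisa7 ran from 1796 to 1979 normalized counts in wild-type and from 1406 to 1514 in Mbd2-/- (log2 difference -0.37, SE 0.053, limma adjusted p = 0.000279). Shisa6 (-0.27, limma adjusted p = 0.0052) and Shisa9 (-0.29, limma adjusted p = 0.00441) fell as well. None of the 3 overlapped between genotypes, as was the case in this direction for 11.5% of all tested genes. Shisa6 was -0.15 (limma adjusted p = 0.0368) and Shisa9 -0.50 (limma adjusted p = 0.000137) once the length trend was removed. Prrt1 (SynDIG4, -0.36, limma adjusted p = 0.00308), a component of receptor complexes in extrasynaptic stores, and Prrt2 (-0.24, limma adjusted p = 0.00887), a presynaptic protein also found in those complexes, were lower.

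The list also holds the TARPs Cacng4, Cacng5 and Cacng7 and the cornichon Cnih1. Cacng5 (gamma-5), an atypical TARP, was lower, between 279 and 308 normalized counts in wild-type and between 208 and 235 in Mbd2-/- (log2 difference -0.41, SE 0.076, limma adjusted p = 0.00167). Cnih1, a cornichon that exports proteins from the endoplasmic reticulum in most cell types, was higher, between 586 and 640 in wild-type and between 708 and 817 in Mbd2-/- (log2 difference 0.34, SE 0.064, limma adjusted p = 0.00167). Mbd2-/- replicate 4 had the highest Cnih1 value, 817, in contrast to its place for Cnih2. Cacng4 (-0.091, limma adjusted p = 0.594) and Cacng7 (0.13, limma adjusted p = 0.247) did not pass the test. Without Mbd2-/- replicate 4 Cacng7 was called higher (0.21, limma adjusted p = 0.00785). With the length trend removed it was 0.054 (limma adjusted p = 0.628). Cnih1 was 0.18 once the length trend was removed (limma adjusted p = 0.0845), and Cacng5 was -0.38 (limma adjusted p = 0.00209).

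Among 5 receptor assembly and lipid enzymes, 2 were lower and none was higher, beside the same 10.0% and 12.0%. Frrs1l, an endoplasmic reticulum protein required for assembly of the receptor core with its auxiliary proteins, was lower, between 3126 and 3227 normalized counts in wild-type and between 2413 and 2868 in Mbd2-/- (log2 difference -0.25, SE 0.054, limma adjusted p = 0.00373). The Frrs1l difference was -0.14 once the length trend was removed (limma adjusted p = 0.0319). The other called gene was Cpt1c, a neuronal enzyme relative that binds Gria1 protein (-0.16, limma adjusted p = 0.0369), which was named after its values were seen. Its call was lost when any library other than Mbd2-/- replicate 4 was left out, and with no filter, with the replicate block and in limma without the trend and robust options. All 3 neuronal pentraxin genes, whose products cluster AMPA receptors at synapses, had negative differences, from -0.39 to -0.11. Without Mbd2-/- replicate 4 these differences were smaller, from -0.20 to -0.075. None of them was called in the limma fit of all 8 libraries, where 2 had an unadjusted p under 0.05. Nptx2, named after its values were seen, had a limma adjusted p of 0.052 there and was called lower by edgeR, DESeq2 and limma-voom, and by limma with the length trend removed, with a filter at 50, with upper-quartile scaling and without Mbd2-/- replicate 3.

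Among 12 anchoring and trafficking partners, 3 were lower and 2 higher, to be read against the 10.0% and 12.0% of all tested genes. Nsf, the ATPase that binds Gria2 and keeps it at the membrane, was lower, between 12710 and 13804 normalized counts in wild-type and between 11040 and 11924 in Mbd2-/- (log2 difference -0.19, SE 0.044, limma adjusted p = 0.0066). Gripap1, an endosomal protein that binds the scaffold Grip1, was lower (-0.24, limma adjusted p = 0.00649). The genes called higher, named here after their values were seen, were Dlg4 (PSD-95), the main postsynaptic scaffold (0.17, limma adjusted p = 0.0131), and Nsg2, an endosomal protein (0.15, limma adjusted p = 0.0416). With the length trend removed Dlg4 was 0.19 (limma adjusted p = 0.00429) and Nsg2 0.082 (limma adjusted p = 0.201). The Dlg4 call was lost when wild-type replicate 4 or Mbd2-/- replicate 2 was left out and in limma without the trend and robust options, and the Nsg2 call when any library other than Mbd2-/- replicate 4 or wild-type replicate 2 was left out, with no filter and in limma without those options.

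**Figure D5:**
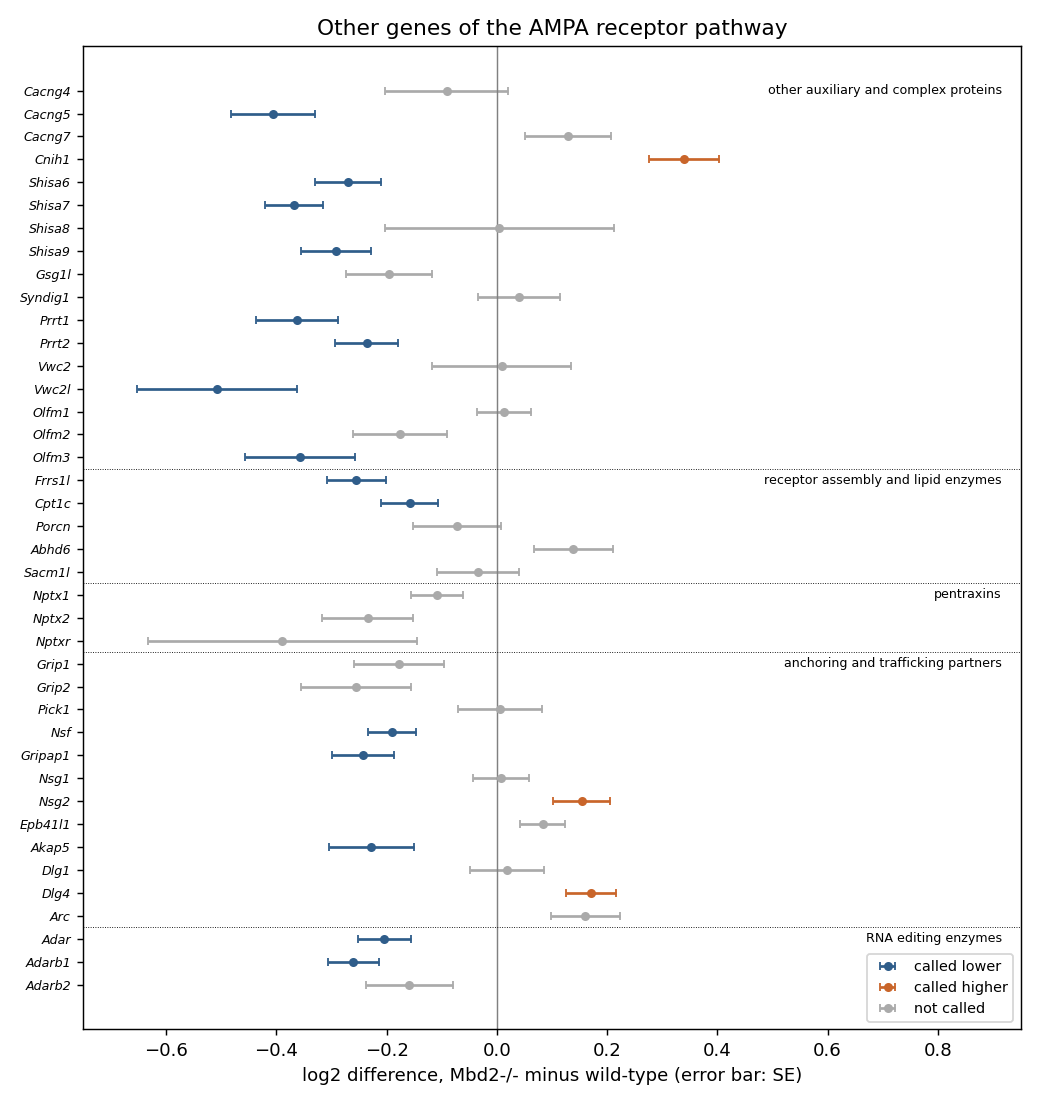
Log2 difference between genotypes, Mbd2-/- minus wild-type (x axis), with its SE, of the 40 further genes of the AMPA receptor pathway, grouped by list, with genes called lower in blue, higher in orange and not called in grey. Blue points (15) outnumber orange points (3), and Shisa6, Shisa7, Shisa9, Cacng5 and Adarb1 lie to the left of 0.

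Of the 3 genes listed as RNA editing enzymes, 2 were called lower and none higher, beside 10.0% and 12.0% of all tested genes. Adarb1, which recodes the Gria2 codon, measured 3982, 3895, 3973 and 3739 normalized counts in wild-type and 3162, 3271, 3236 and 3346 in Mbd2-/-. The genotypes did not overlap, as in this direction for 11.5% of all tested genes, and replicate 4 of Mbd2-/- lay with the other Mbd2-/- libraries. Adarb1 fell by 16.5% (log2 difference -0.26, SE 0.046, limma adjusted p = 0.00115), and was called without replicate 4 (-0.27) and with the length trend removed (-0.15, limma adjusted p = 0.0249). Adar, the broadly expressed editing enzyme, fell by 13.2% (log2 difference -0.20, SE 0.048, limma adjusted p = 0.00693) and was not called with the length trend removed (-0.11, limma adjusted p = 0.162). Adarb2, which has no known editing activity, was not called (-0.16, SE 0.079, limma adjusted p = 0.159). It was called lower without replicate 4 of Mbd2-/- (-0.23, limma adjusted p = 0.0117) and was -0.046 with the length trend removed (limma adjusted p = 0.698).

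Genes with the most similar pattern within genotypes were found for each subunit by Pearson's r of log2(normalized count + 1) over the 8 libraries after the genotype means were removed, as a description without a test. For Gria2 they were Osbpl8 (r = 0.997) and Myo5a (r = 0.996), for Gria3 Rfx3 (r = 0.992) and Prrg1 (r = 0.992), and for Gria4 Cep295 (r = 0.984) and Sec24a (r = 0.982). For Gria1 they were Gp1ba (r = 0.968), with a mean of only 20.6 normalized counts, and Sec11c (r = 0.962). Among the members, r was 0.946 between Gria2 and Gria3, -0.890 between Gria2 and Cnih2, and 0.0744 between Gria1 and Gria2. The points share the depth and the length trend of their library, and these values were not recomputed without Mbd2-/- replicate 4.

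Markers of other regions and cell types also differed between genotypes, and their part in the results above was not tested. The counts of calls below stand beside 10.0% lower and 12.0% higher over all tested genes. All 13 choroid plexus markers were higher (summed normalized counts 24063 to 25718 in wild-type and 46543 to 53091 in Mbd2-/-), and 10 of 12 thalamus markers were lower (5677 to 5877 and 3790 to 4512). Higher calls were made for 4 of 7 astrocyte, 5 of 7 oligodendrocyte, 4 of 6 microglia and 2 of 5 endothelium markers, and lower calls for 2 of 4 oligodendrocyte precursor markers. Of the neuronal lists, CA1 markers gave 2 lower of 6 (5585 to 5946 and 4631 to 5179) and CA3 markers 1 higher of 6. Dentate gyrus markers gave 1 lower and 2 higher of 7, GABAergic interneuron markers 2 lower and 3 higher of 8, and general neuronal markers 1 of each of 7 (145412 to 150894 and 155983 to 163018). In the last list Camk2a rose from a mean of 68037 to 81908 and held the largest part of the sum, and 4 of the 7 differences were negative. No marker of these lists was at 0 in all libraries, and those of hippocampal fields were present in every library.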

How the data were processed

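Hippocampal RNA depleted of ribosomal RNA was read as 100-base paired ends. Per the labels and the study's methods, the authors removed duplicate reads, aligned to mm9 with STAR and compared genotypes with DESeq2, and versions, strand setting and read counter are not given in the sources used here. The deposited signal is a normalized count, the reads of a gene divided by a size factor of the library. The 6 deposited columns of the authors' comparison (mean, log2 fold change, its error, statistic, p-value and adjusted p-value) were not used. Division by the smallest value above 0 gave whole reads, to within 0.01 of a read, for 100% of values. Totals cover counting error only.

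Genes were tested with limma 3.58.1 (R 4.3.3, trend and robust options) on log2(normalized count + 1) over the 14504 genes averaging 10 or more, with calls below a Benjamini-Hochberg adjusted p of 0.05. The method was tested on simulated data. Alternatives were edgeR 4.0.16, DESeq2 1.42.0 and limma-voom on recovered reads, TMM and upper-quartile scaling, other filters (none, 50) and pseudocounts (0.5, 5), limma without trend and robust options, a replicate block, removal of the length trend (GENCODE vM1 lengths, 16812 symbols matched directly and 1285 by synonym), and leaving out each library. Shares used exact permutation tests (SciPy 1.17.1). The labels do not say that replicate numbers pair animals, so p-values measure the spread between pools. The members, lists and tests were chosen with earlier results of these data known. Named genes were the 9 members, Mbd2, the 12 called pathway genes with the smallest p, the RNA editing enzymes, and 2 genes most like each subunit. Of the 2 most abundant genes of each marker list, also in the rule, only Camk2a is printed. Cpt1c, Nptx2, Dlg4 and Nsg2 are printed outside the rule, after their values were seen, and so are Cacng4 and Cacng7.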

Additional observations from a re-analysis of the deposited data

Results flagged for a closer look

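The Gria3 share of the 4 subunits in Mbd2-/- replicate 4 was 9.74%, far above the other 3 Mbd2-/- libraries (8.63% to 8.80%), with a gap to the nearest of 0.842 of the group's range, above Dixon's 95% critical value for 4 values. Of 34 groups of 4 values checked, for the 9 genes and the 8 shares, this was the only one past the critical value. Chance alone flags about 1 in 20 groups, so 1 flag among 34 is not beyond chance. The same library stood apart in the report for Gria2, Gria3, Gria4, Cnih2 and Cnih3, though no gene passed this check.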

How the results depend on the processing

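The 2 lower calls (Gria1, Gria3) and the higher call (Cnih2) were made by edgeR, DESeq2 and limma-voom and under both scalings, both filters and both pseudocounts. Limma without the trend and robust options called 0 members lower, 0 higher and 1 pathway gene higher, with 2 members lower and 1 higher at an unadjusted p under 0.05. With the length trend removed 0 members were called higher (1 at an unadjusted p under 0.05) and 2 lower, Gria3 and Cacng8. With a replicate block 4 members were called lower, adding Gria2 (limma adjusted p = 0.0413) and Gria4 (limma adjusted p = 0.0433). Same-numbered libraries correlated at -0.103, -0.057, 0.0742 and 0.0355 after the genotype means were removed. With so few libraries these values cannot settle whether the numbers mark pairs, which the labels do not state. The replicate block left the other member calls as they were. As pairs, the Cnih3 share difference stayed at -1.19 percentage points (exact sign-flip p = 0.25). Leaving out 1 library moved the counts between 0 and 4 members lower, 0 and 2 members higher, 11 and 18 pathway genes lower and 1 and 6 pathway genes higher. Without Mbd2-/- replicate 1 or wild-type replicate 4 the lower count was 0, with 3 members at an unadjusted p under 0.05 in each. The sign turned for 2 uncalled genes: Cacng2 was 0.058 with the length trend removed, and from -0.051 to 0.0034 (without Mbd2-/- replicate 2) with 1 library left out, and Cacng3 then ran from -0.059 to 0.020 (without wild-type replicate 2), with 0.015 without Mbd2-/- replicate 4. The causes were not tested. Pathway genes called higher were 1 without Mbd2-/- replicate 2 or wild-type replicate 4 and 6 without Mbd2-/- replicate 4. The 8 shares moved by less than the pooled SD of the genotypes, which includes Mbd2-/- replicate 4, when a library was left out. The uncalled Gria1 share difference still ranged from -0.078 to 2.24 points and that of Gria2 from -1.19 to 0.573. That of Gria4 ranged from -0.23 to -0.017. All 8 kept direction and side of the threshold by coding length and by reads.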
